A study of Mus musculus with 6 samples.

Results

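The Ifi200 and AIM2-like cluster is a run of PYHIN genes on mouse chromosome 1, and 10 of its genes were followed here by name: Aim2, Ifi213, Ifi209, Ifi207, Ifi204, Mndal, Ifi211, Ifi203, Ifi202b and Ifi205. They are 10 of the 35856 genes with values in the series and span chr1:173350879-174031810 on GRCm38. Estimated counts of all transcripts of a gene were summed in each of 6 libraries, and the 3 libraries labelled 4OHT were compared with the 3 labelled EtOH.

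PYHIN proteins carry a pyrin domain, which binds other pyrin domains, or a HIN-200 domain, which binds DNA, and most carry both. AIM2 senses double-stranded DNA in the cytosol and assembles an inflammasome through the adaptor ASC, which activates caspase-1. Many Ifi200 genes are known as interferon-induced genes of myeloid and mesenchymal cells, and their promoters are classical sites of interferon-stimulated response elements (ISRE), a sequence read by interferon regulatory factors.

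Per the labels, all 6 libraries came from Mdm2fl/flp53-/- cells, that is cells with floxed Mdm2 and no p53. The tumours were in short-term culture. The pair labelled lymphoma is T cell lymphoma given 1 mM 4-hydroxytamoxifen (4OHT, labelled Mdm2 deleted) or ethanol vehicle (EtOH) for 6 h. The pair labelled sarcoma and the pair labelled fibroblast (ear fibroblasts of adult mice) received the same agents for 48 h. Cells had been infected with a retrovirus carrying GFP with CreERT2, a Cre recombinase that 4OHT activates, or GFP alone, and the labels do not say which vector each library carried, nor the mouse strain. No library is labelled GFP alone with 4OHT, so deletion and 4OHT exposure cannot be told apart. No group has a second library, so a difference within a pair has no replicate check, and the labelled pairs serve as the replicates of the shared test. Whether libraries of different labels stem from separate cultures is told only by the cell type in their names. The p-values thus reflect the spread among these libraries alone, and it may be technical.

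Several values go against the labels, and groups are therefore called by their label throughout. Mdm2, the targeted gene, measured 30.5, 31.1 and 31.1 CPM (counts scaled to library size with TMM factors) in the libraries labelled 4OHT and 28.4, 28.0 and 28.5 CPM in those labelled EtOH, so its RNA was not lower under the deleted label. Summed coding reads do not show whether part of the gene was removed. T cell markers were near 0 in the pair labelled lymphoma: Cd3d, Cd3e and Cd247 had 0 counts in all 6 libraries, and of the 10 listed markers Lck alone reached 1 CPM. Mesenchymal markers summed to 7462 to 7623 CPM in the libraries labelled 4OHT and to 13139 to 13602 CPM in those labelled EtOH. Libraries of the same arm nevertheless differed beyond counting noise (chi-square over genes, 8.22 to 77.2 per degree of freedom) and were not treated as repeats. In bulk RNA, fewer cells of a type and less RNA per cell cannot be told apart.

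The promoters are shown first because several of the cluster genes shared a site there. RefSeq promoters (GRCm38.p6, 250 bases before the start) matched 9 of the 10 genes, Ifi204 being the exception. The ISRE core, GAAA, any pair of bases and GAAA again, searched on both strands, lay in a promoter of 6 of these 9 genes (Mndal, Ifi203, Ifi205, Ifi207, Ifi211 and Ifi213), against 2.98% of all 32851 promoters of the same length. A gene counted if any of its starts held the core (Mndal and Ifi203 have 2 starts each), while the background counts promoters. Some of these promoters also share sequence beyond the core, so the 6 genes are not independent cases. Each line below gives 30 bases, 5′ to 3′ on the strand of the gene, with the 10 bases at the core position in capitals. Ifi209 and Ifi208 lie on the plus strand and the others on the minus strand.
Mndal (chr1:173880198-173880227): tgggGAAATCGAAAgctatgaacagtgctg
Ifi203 (chr1:173942502-173942531): tgggGAAATCGAAAgctatgaacagtgctg
Ifi211 (chr1:173913058-173913087): caggGAAATTGAAAgctatgaacgaaactg
Ifi205 (chr1:174031864-174031893): caggGAAATTGAAAgctatgaacaaaactg
Ifi207 (chr1:173741825-173741854): caggGAAATCGAAAattaagaacaaaactg
Ifi213 (chr1:173599320-173599349): tgagGAAATCGAAAgctatgaaccttgtcc
Ifi209 (chr1:173630776-173630805): tgagTAAATCGAAAgagatgcactctgccg
Ifi206 (chr1:173491333-173491362): tgagGAAATCGAAAgctatgaaccttgtcc
Ifi208 (chr1:173673603-173673632): tgagGAAATCGAAAgctatgaaccttgtcc

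The core began 36 bases before a start of Mndal, 35 before a start of Ifi203, 37 before that of Ifi211, 41 before Ifi207 and 73 before Ifi213, but 134 before Ifi205. Mndal and Ifi203 showed the same 30 bases, and so did Ifi213 and the other locus genes Ifi206 and Ifi208. A longer word, the 19 bases from the first capital on that Ifi203 and Ifi211 share with the sixth left free, was chosen after these promoters were read. It was found in 7 of the 32851 promoters on either strand, and all 7 belonged to this locus. In Ifi207, counted from 1 at the 5′ end of that word, it was altered by G11A, C12T and T15A. Ifi209 lacked the core, and its nearest site, 79 bases before the start, differed from the word by G1T, C12A, T13G and A17C. Ifi214, another gene of the locus, held the core 79 bases before its start and differed from the word by T13G and A17C. Aim2 and Ifi202b had no core in this window, which says only that these letters are absent there. The NF-kB form, GGGA, any 4 bases and CC, lay in 3 genes (Mndal, Ifi203 and Ifi209) and in 17.6% of promoters. A further form that was searched, TTC, any 3 bases and GAA, lay in 1 gene (Ifi202b) and in 7.02% of promoters. A match is a description of sequence and not a shown binding site.

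The cluster genes were higher in every library labelled 4OHT than in any labelled EtOH. Of the 10 genes, 9 passed the filter on low counts and were tested, and all 9 rose at an edgeR adjusted p under 0.05, where 25.0% of the 15933 genes tested were called higher. None of the 9 fell, against 24.6% of all genes tested, and 49.6% of all genes were called in either direction. Their median log2 fold change was 1.72, against 0.02 over all genes tested. Each of the 9 changed at least 2-fold, which 4.77% of all genes tested did while called higher. Aim2 and Ifi213 had fewer than 10 counts in every library labelled EtOH and entered the test through the libraries labelled 4OHT, so their calls follow partly from the filter. The other 7 genes had at least 10 counts in every library. For each of the 10 genes all 3 libraries labelled 4OHT lay above all 3 labelled EtOH. This held for 27.7% of genes tested, Ifi202b being outside that background.

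**Figure D1:**
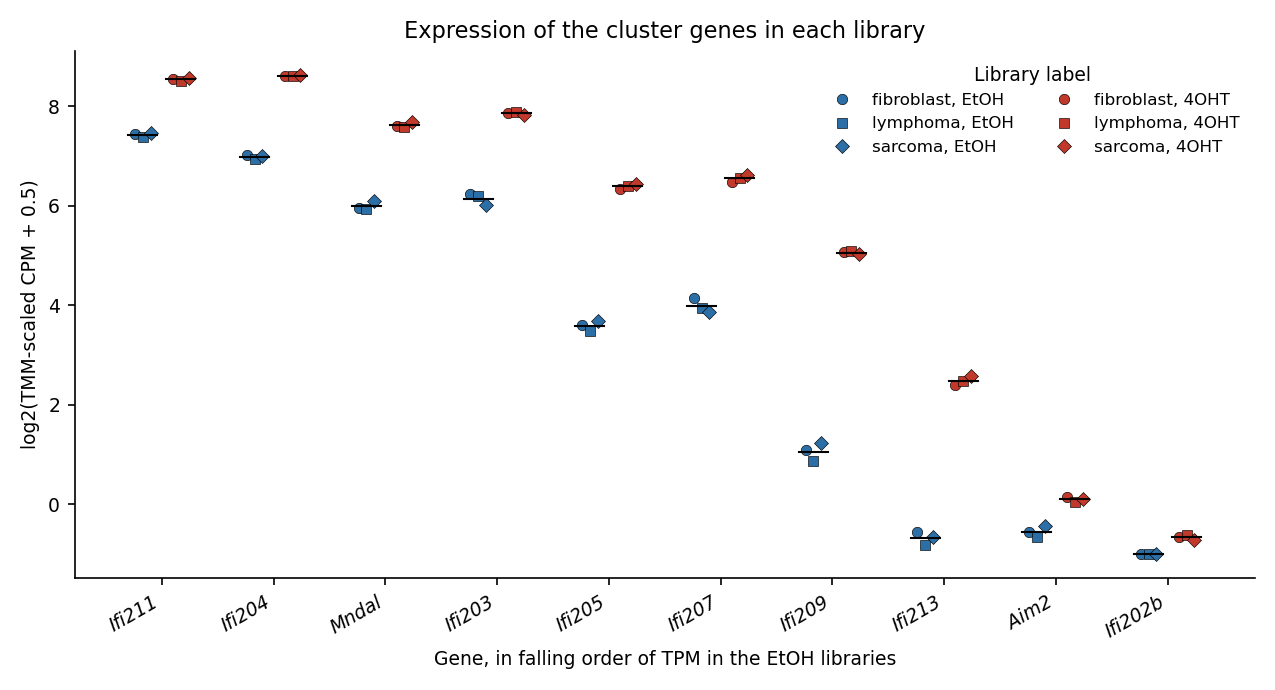
Level of the 10 cluster genes as log2(TMM-scaled CPM + 0.5), with 1 point per library, the shape giving the cell type label, the colour the arm and the short line the mean of 3 libraries. Red points (4OHT) sit above blue points (EtOH) for every gene, and Ifi202b lies at 0 CPM in the 3 libraries labelled EtOH.

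Summed over the 10 genes, the cluster RNA measured 1401, 1397 and 1428 CPM for 4OHT (fibroblast, lymphoma and sarcoma label), and 470, 448 and 465 CPM in the matching libraries labelled EtOH. Within an arm these values lay close together, and the arms were far apart. The ratio was 2.98 (95% counting interval 2.93 to 3.04) in the pair labelled fibroblast, 3.12 (3.06 to 3.18) in the pair labelled lymphoma and 3.07 (3.02 to 3.13) in the pair labelled sarcoma. The sum does not depend on how reads were shared among these 10 genes. It can depend on the split with other PYHIN genes of the locus, which it leaves out. It carries no test, since the genes were chosen with results known.

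Ifi204 encodes p204, a pyrin and HIN-200 protein that takes part in DNA sensing and interferon-beta induction. It lies at chr1:173747293-173766943 on the minus strand and had the most counts of the cluster in the libraries labelled 4OHT. Its level was 391, 389 and 397 CPM for 4OHT (fibroblast, lymphoma and sarcoma label), against 129, 122 and 127 CPM in those labelled EtOH. The spread within each arm was a few percent of the level. Ifi204 rose by a log2 fold change of 1.64 ± 0.04 (SE, 3 labelled pairs; edgeR adjusted p = 4.47e-11).

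Ifi211 (chr1:173896345-173913046), a gene formerly named Mnda in the mouse, had the smallest change of the tested cluster genes. Its level was 375, 364 and 377 CPM with the 4OHT label and at 173, 166 and 177 CPM in those labelled EtOH. The arms did not overlap, and Ifi211 rose by 1.11 ± 0.04 on the log2 scale (edgeR adjusted p = 1.33e-09). Per length, it was the most abundant cluster gene in both arms, at 147 ± 5.91 TPM in the libraries labelled 4OHT and 66.5 ± 2.35 TPM in those labelled EtOH (SD, n = 3 libraries).

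Mndal and Ifi203 have overlapping gene spans, at chr1:173849126-173942491 and chr1:173920407-173942672 on the same strand. Mndal, related to human MNDA, measured 193, 191 and 205 CPM for 4OHT (fibroblast, lymphoma and sarcoma label) and 61.9, 60.3 and 67.8 CPM in those labelled EtOH. Ifi203 measured 233, 236 and 226 CPM against 74.9, 72.4 and 63.96 CPM. Both showed about the same change as Ifi204: the shared log2 fold change was 1.63 ± 0.04 for Mndal and 1.72 ± 0.05 for Ifi203, with edgeR adjusted p values of 4.56e-11 and 8.54e-11.

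Ifi205 and Ifi207 rose further. Ifi205 (chr1:174011998-174031810), which is known to regulate expression of the ASC adaptor in macrophages, measured 80.9, 83.4 and 86.5 CPM in the libraries labelled 4OHT and 11.6, 10.6 and 12.3 CPM in those labelled EtOH. Its log2 fold change was 2.86 ± 0.05 (edgeR adjusted p = 1.99e-12). Ifi207 (chr1:173723427-173741747) measured 88.6, 93.3 and 97.8 CPM against 17.1, 14.9 and 14.1 CPM, and rose by 2.61 ± 0.07 (edgeR adjusted p = 4.98e-11). The libraries labelled EtOH thus held both genes at a low but well counted level, on 315 to 531 counts.

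The largest changes were in Ifi209 and Ifi213, which were scarce in the libraries labelled EtOH. Ifi209 (chr1:173630917-173647928, plus strand), formerly Pyhin1, measured 32.9, 33.4 and 32.2 CPM for 4OHT (fibroblast, lymphoma and sarcoma label), against 1.61, 1.32 and 1.83 CPM in those labelled EtOH. It rose by 4.35 ± 0.10 on the log2 scale (edgeR adjusted p = 9.66e-12). Ifi213 (chr1:173566283-173599274), formerly Pydc4, measured 4.78, 5.04 and 5.49 CPM against 0.176, 0.0675 and 0.133 CPM, and had a log2 fold change of 5.31 ± 0.24 (edgeR adjusted p = 7.34e-09). That fold rests on 5, 2 and 5 counts in the libraries labelled EtOH. Its size therefore depends on the offset used: on log2(TPM + 1) it was 2.32, and that of Ifi209 was 3.12.

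Aim2 itself was barely expressed. Aim2 (chr1:173350879-173466040, plus strand) was counted 18, 14 and 16 times for 4OHT (fibroblast, lymphoma and sarcoma label) and 5, 4 and 9 times in those labelled EtOH. These are 0.611, 0.526 and 0.578 CPM against 0.176, 0.135 and 0.239 CPM. The arms did not overlap, and the log2 fold change was 1.60 ± 0.35 (edgeR adjusted p = 0.00287), but the call was lost with DESeq2 (adjusted p = 0.0806), and on log2(TPM + 1) the value was 0.42. Its gene span overlaps Cadm3 on the opposite strand, and the strand setting of the counting was not given in the sources used here. Cadm3 stayed at or below 0.181 CPM.

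Ifi202b (chr1:173962568-173982744) encodes p202, which has HIN-200 domains and no pyrin domain and is known to bind DNA without forming an inflammasome; its expression is known to vary between inbred strains. It had 4, 4 and 3 counts for 4OHT (fibroblast, lymphoma and sarcoma label) and 0 counts in each library labelled EtOH. It did not pass the filter and was not tested. Over the arms, 11 counts against a floor of 3 counts per arm give a ratio of 4.19, which leaves out the counting error of the 11. Within single pairs the 95% counting interval began below 1, at 0.638, 0.735 and 0.562 (fibroblast, lymphoma and sarcoma label).

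Ordered by TPM, a per-length level, the cluster genes kept the same order in both arms: Ifi211, Ifi204, Mndal, Ifi203, Ifi205, Ifi207, Ifi209, Ifi213, Aim2 and Ifi202b. In the libraries labelled EtOH the mean levels were 66.5, 31.9, 27.5, 17.5, 4.70, 2.37, 0.623, 0.106, 0.0922 and 0 TPM in this order. The ranges over libraries of Ifi213 and Aim2 overlapped there, and no other neighbouring ranges did. In the libraries labelled 4OHT the levels were 147, 102, 85.6, 62.1, 35.0, 14.8, 13.2, 4.50, 0.479 and 0.0494 TPM, and only the ranges of Ifi207 and Ifi209 overlapped.

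Because the folds were unequal, the make-up of the cluster RNA differed between the arms. Ifi211 gave 31.6% ± 0.186 of the TPM sum in the libraries labelled 4OHT and 43.9% ± 0.666 in those labelled EtOH (SD, n = 3 libraries), a lower share although its level was higher. Ifi205 gave 7.53% ± 0.232 against 3.11% ± 0.157, and Ifi209 2.83% ± 0.0906 against 0.411% ± 0.0575. The shares of Ifi204 were close, at 21.9% ± 0.150 and 21.1% ± 0.0820, without overlap. The ranges of Mndal overlapped, at 18.5% ± 0.570 and 18.2% ± 0.802. With 3 libraries a side no exact permutation test can pass 0.05, and none was run on shares.

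**Figure D2:**
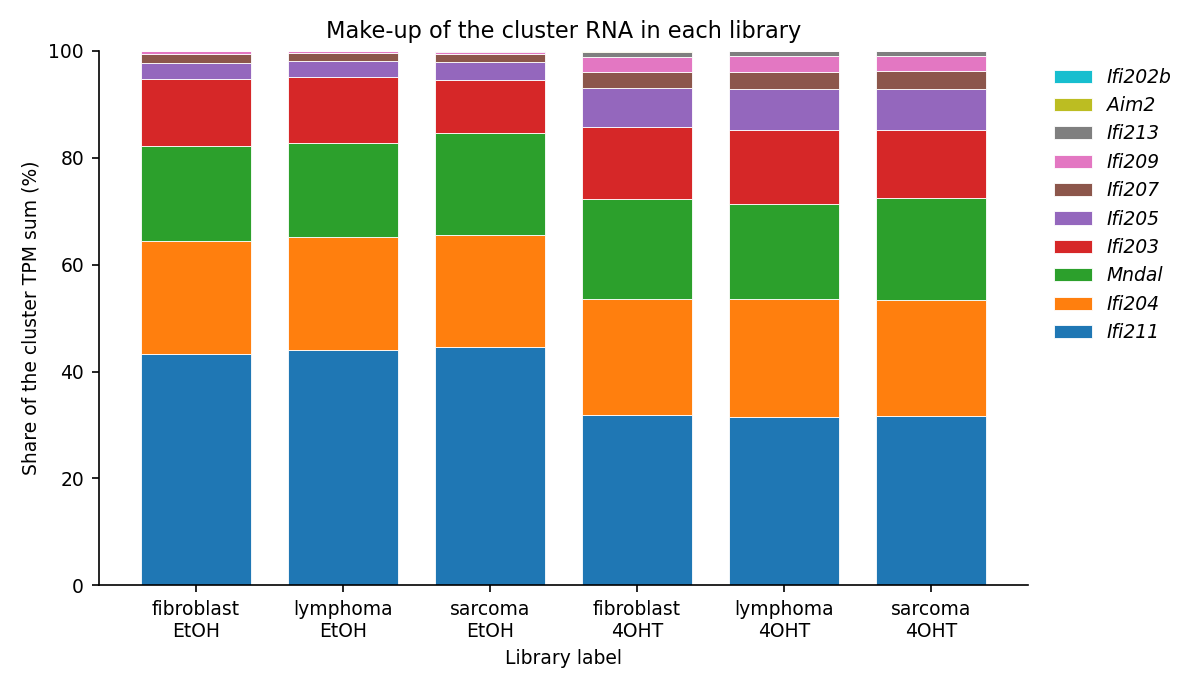
Share of each cluster gene in the summed TPM of the 10 genes (percent, stacked to 100), 1 bar per library, EtOH libraries on the left. The Ifi211 block shrinks from 43.9% to 31.6% on average while the upper blocks, from Ifi205 upward, grow.

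The labelled pairs gave much the same ratios, although the exposure was 6 h in the pair labelled lymphoma and 48 h in the others. Of the 10 genes, 7 had a mean of at least 5 CPM in each pair, and all 7 were at least 2-fold higher in each, where 2.77%, 2.79% and 2.82% of genes at that level were so in the fibroblast, lymphoma and sarcoma pairs. Ifi211 had CPM ratios of 2.17, 2.19 and 2.13 in these pairs, and Ifi204 of 3.04, 3.19 and 3.13. Mndal lay between 3.02 and 3.17. Ifi205 had ratios of 6.98, 7.85 and 7.04, and Ifi209 of 20.4, 25.4 and 17.6, with overlapping counting intervals. For Ifi213 the ratios were 27.2 (95% counting interval 11.4 to 85.2), 74.6 (20.3 to 622) and 41.4 (17.3 to 129), too wide to order.

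Counting intervals of separate pairs stood apart for 2 genes. Ifi203 had a ratio of 3.11 (2.97 to 3.27) in the pair labelled fibroblast and 3.54 (3.38 to 3.71) in the pair labelled sarcoma. Ifi207 had 5.18 (4.70 to 5.72) and 6.94 (6.32 to 7.63) in the same pairs. Both genes were lowest in the library labelled sarcoma EtOH. With 1 library per group these differences cover counting error only, and a difference between the cell type labels was not tested.

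**Figure D3:**
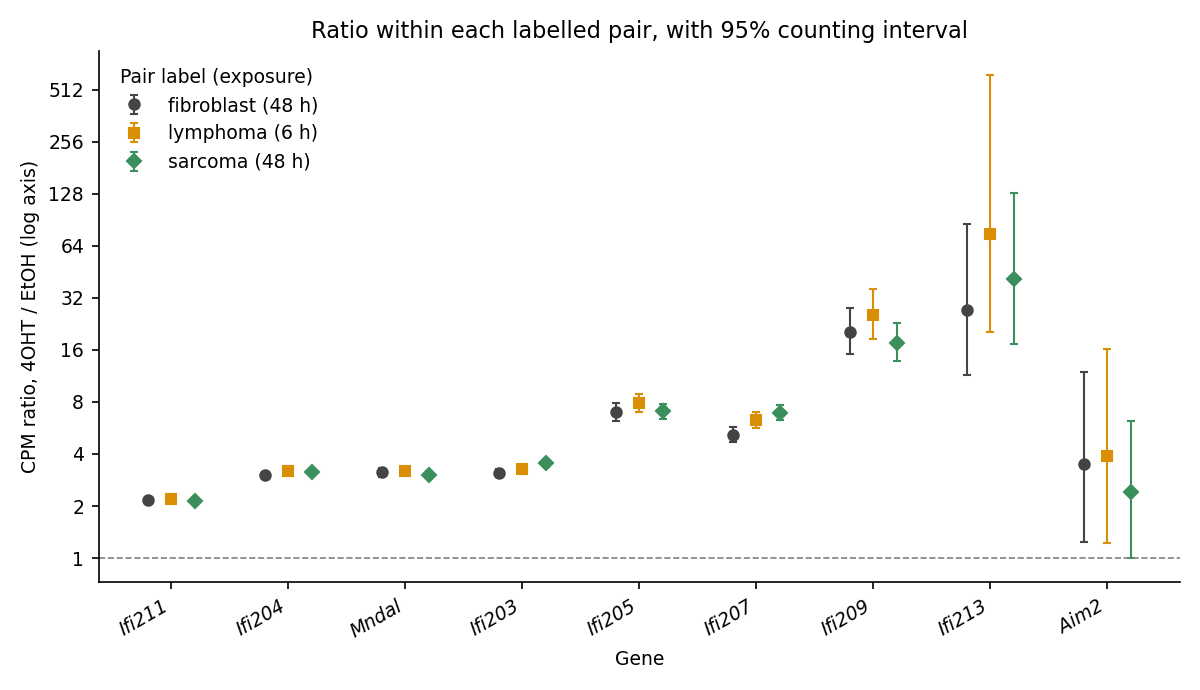
Ratio of TMM-scaled CPM, 4OHT over EtOH, within each labelled pair for the 9 cluster genes counted in every library, on a log axis with 95% Clopper-Pearson counting intervals. Ratios range from those of Ifi211 (2.13 to 2.19) to those of Ifi213 (27.2 to 74.6). The 3 pairs of a gene lie near each other where counts are high, but for Ifi203 and Ifi207 the fibroblast and sarcoma intervals stand apart.

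The split of reads between cluster genes is uncertain where their coding sequences are alike. Kallisto assigns reads by shared sequence words, and 84.8% of the 31-base words in the Ifi211 targets also occurred in another PYHIN gene of the locus, mostly Ifi205 (52.0%), Ifi204 (45.8%) and Mndal (33.7%). For Ifi205 the share was 56.8%, for Ifi209 54.8% (all in Ifi214), for Ifi204 47.7%, for Ifi213 43.2% (all in Ifi208) and for Mndal 39.2%. Ifi207 and Ifi203 shared 13.9% and 11.2% of their words, and Aim2 and Ifi202b 0. Of the 2 Ifi206 targets only 1, of 429 bases, entered this search. The 2058-base target, which held most of the Ifi206 TPM, did not, so words shared with it are missing from these shares. Sums over the genes found to share words do not depend on the split among them. A split with the 2058-base Ifi206 target was not checked. The sums were added after seeing the data and are given without a test. Ifi203, Ifi204, Ifi205, Ifi207, Ifi211 and Mndal together measured 1370 ± 17.3 CPM in the libraries labelled 4OHT and 459 ± 11.0 CPM in those labelled EtOH (SD, n = 3 libraries). Ifi209 with Ifi214 measured 33.1 ± 0.562 against 1.59 ± 0.259 CPM, and Ifi213 with Ifi208 8.16 ± 0.914 against 0.284 ± 0.0597 CPM.

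Coding isoforms did not all move alike. Ifi203 had targets of 3 coding lengths. The 2616-base sequence measured 141, 145 and 140 CPM for 4OHT (fibroblast, lymphoma and sarcoma label) and 47.5, 48.4 and 45.6 CPM in those labelled EtOH. The 1230-base sequence measured 83.4, 85.1 and 77.1 CPM against 24.8, 21.9 and 15.8 CPM. The shorter sequence made up 54.3% ± 1.46 of Ifi203 TPM in the libraries labelled 4OHT and 47.6% ± 5.36 in those labelled EtOH (SD, n = 3 libraries), without overlap, and was lowest in the library labelled sarcoma EtOH. Mndal was mostly its 1617-base sequence, at 57.3% ± 2.06 and 58.5% ± 2.09 of its TPM, whose ranges overlapped, as did those of its 552-base sequence. Its 390-base sequence gave 23.1% for 4OHT and 28.6% for EtOH, and its 1458-base sequence 5.21% and 2.90%, both without overlap. Ifi213 reads were split between a 408-base sequence, at a mean of 2.01 CPM in the libraries labelled 4OHT, and a 1761-base sequence, at 3.09 CPM. Isoform values are kallisto's estimates and were not tested.

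The locus holds 3 further PYHIN genes with values, and these were higher in the libraries labelled 4OHT too. Ifi206 (chr1:173468485-173491041), beside Aim2, measured 32.2, 33.7 and 40.9 CPM in the libraries labelled 4OHT against 1.72, 1.22 and 1.75 CPM, and rose by 4.51 ± 0.10 (edgeR adjusted p = 6.50e-12). Ifi208 (chr1:173673675-173698395) measured 2.88, 2.56 and 3.72 CPM against 0.176, 0.169 and 0.133 CPM and rose by 4.27 ± 0.25 (edgeR adjusted p = 1.03e-07). Ifi208 had 5 counts in each library labelled EtOH and entered the test through the libraries labelled 4OHT, so its call follows partly from the filter. Ifi214 had 13, 4 and 8 counts against 0 and was not tested. Of the tested PYHIN genes, the 4 with log2 fold changes above 4 (Ifi206, Ifi213, Ifi209 and Ifi208) are neighbours in position, on the Aim2 side of the locus, and the genes from Ifi207 to Ifi205 had values of 1.11 to 2.86. This order was noticed after the values were seen and was not tested. On log2(TPM + 1) the split was not kept, with Ifi213 at 2.32 and Ifi205 at 2.66. Ifi213 and Ifi208 had 5 counts or fewer in each library labelled EtOH. They also share sequence words (43.2% of those of Ifi213), so their values are not independent.

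**Figure D4:**
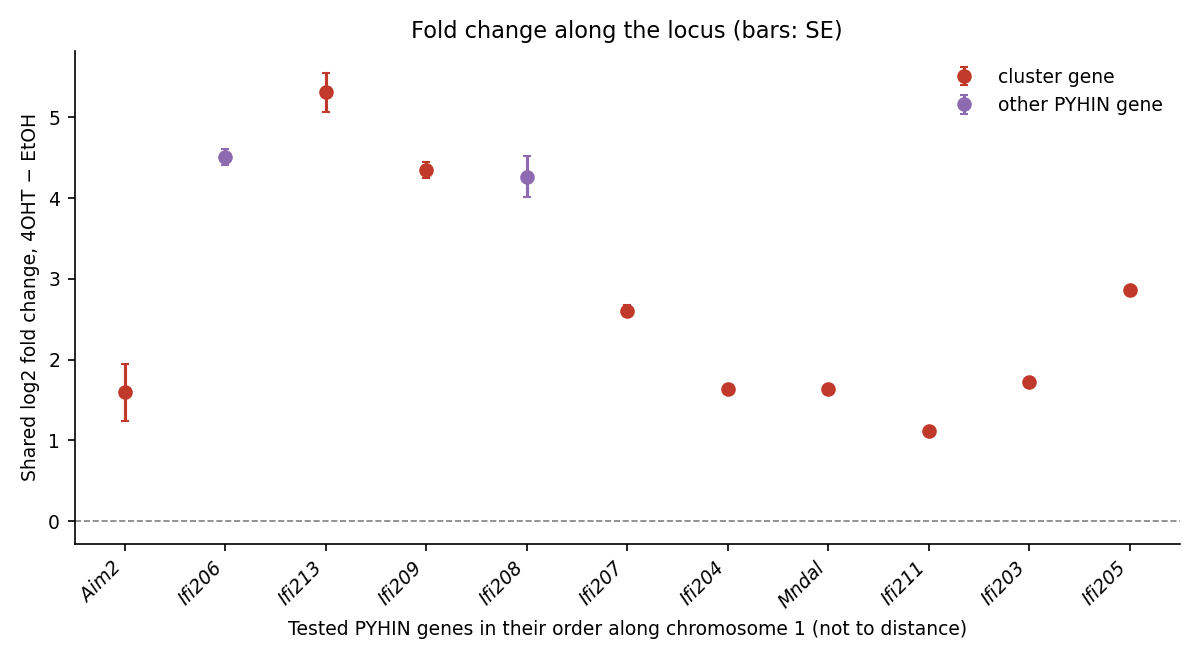
Shared log2 fold change (4OHT minus EtOH) with its SE for every tested PYHIN gene, in order along chromosome 1 and not to distance. Ifi206, Ifi213, Ifi209 and Ifi208 stand above 4, and the cluster genes from Ifi207 to Ifi205 lie between 1.11 and 2.86. The values of Ifi213 and Ifi208 rest on 5 counts or fewer in each library labelled EtOH.

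Genes around the cluster did not follow it as a block. Of 38 other protein-coding genes within 1 Mb, 19 are olfactory receptor genes and 23 had 0 counts in every library. Of the 7 that were tested, 3 rose and 1 fell, where 25.0% of all genes tested rose and 24.6% fell. Pigm, an enzyme of GPI anchor synthesis, had a log2 fold change of 0.21 ± 0.08 (edgeR adjusted p = 0.0336), while Tagln2 (0.10, edgeR adjusted p = 0.264) and Igsf9 (0.17, edgeR adjusted p = 0.578) did not pass. The other genes that rose, named after their values were seen, were Slamf8, a receptor of the SLAM family, at 2.44 ± 0.22, and Cfap45 at 1.59 ± 0.32, both at or below 2.37 CPM.

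Partners of the PYHIN proteins were partly at the edge of detection. Of 23 inflammasome and DNA sensing genes, 16 were tested, 12 rose and 2 fell, where 25.0% of all genes tested rose and 24.6% fell. Of the 12, 8 rose at least 2-fold (4.77% of all genes tested). The median log2 fold change of the 16 tested was 0.89 against 0.02 over all genes. Pycard, which encodes ASC, measured 1.09, 1.84 and 1.81 CPM in the libraries labelled 4OHT and 0.316, 0.540 and 0.372 CPM in those labelled EtOH, and rose by 1.95 ± 0.24 (edgeR adjusted p = 4.76e-05). Casp1, the caspase of the AIM2 inflammasome, stayed at or below 0.397 CPM and was not tested, and Il1b, its cytokine substrate, had 0 counts in all 6 libraries. Zbp1, a sensor of Z-form nucleic acid, rose from 4.78 ± 0.933 to 99.1 ± 2.64 CPM (log2 fold change 4.35 ± 0.09, edgeR adjusted p = 3.65e-12). Il1a and Nlrp3 were also called higher, by 3.96 and 2.90 on the log2 scale, at no more than 0.903 CPM in any library. Both had fewer than 10 counts in every library labelled EtOH, so their calls follow partly from the filter.

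Genes of interferon signalling, which lies upstream of ISRE-driven genes, mostly rose, many of them by little. Of 21 listed genes, 18 were tested, 16 rose and 1 fell (Socs3), where 25.0% of all genes tested rose and 24.6% fell. Of the 16 that rose, 9 did so at least 2-fold (4.77% of all genes tested), and the median log2 fold change of those tested was 0.99. The receptor genes Ifnar1 and Ifngr1, named after their values were seen, had log2 fold changes of only 0.14 ± 0.05 and 0.19 ± 0.04 (edgeR adjusted p = 0.0341 and 0.00442). Ifnb1, the interferon-beta gene, was counted at 1.66, 1.43 and 2.06 CPM in the libraries labelled 4OHT and at 0.0702, 0.0338 and 0.0266 CPM in those labelled EtOH (log2 fold change 5.24 ± 0.38, edgeR adjusted p = 5.97e-07). With 2, 1 and 1 counts in the latter, Ifnb1 entered the test through the libraries labelled 4OHT. Ifng had 0 counts in every library. Irf7 and Usp18 rose by 3.31 and 3.50.

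Over the 6 libraries, the genes outside the locus closest to the cluster sum were Tapbp, H2-T10, Slfn9, Irf1 and Nt5c3. Likeness was the root mean square distance of centred log2(CPM + 0.5) among 10849 genes whose mean reached 5 CPM, and these had distances of 0.0238 to 0.0377. Tapbp, the tapasin gene of peptide loading, went from 132 ± 2.32 to 402 ± 6.44 CPM, and Irf1, an interferon regulatory factor, from 60.1 ± 1.41 to 183 ± 2.02 CPM (SD, n = 3 libraries). The measure selects genes with about the fold of the sum, and these genes share its libraries.

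Because myeloid cells express the cluster strongly, macrophage and dendritic cell markers are given beside it. The 10 macrophage markers summed to 26.5 to 29.8 CPM in the libraries labelled 4OHT and to 26.6 to 28.4 CPM in those labelled EtOH, nearly all of it Cd14 and Cd68. Of the 5 tested, 3 rose (Cd68, Csf1r and Itgam) and Cd14 fell, where 25.0% of all genes tested rose and 24.6% fell. Fcgr1 had 0 counts in all libraries, and Adgre1 and Lyz2 were counted only under the sarcoma label. Itgam had 29, 16 and 15 counts for 4OHT (fibroblast, lymphoma and sarcoma label) and 0, 0 and 1 for EtOH. Csf1r had 22, 13 and 18 counts against 9, 7 and 8. The library labelled sarcoma 4OHT had 0.506 CPM of the leukocyte marker Ptprc, 0.108 of Adgre1 and 0.144 of Lyz2. The 4 dendritic cell markers summed to 0.678 to 1.19 CPM against 0.0531 to 0.105 CPM, and Itgax had 15, 17 and 25 counts against 0 in each library labelled EtOH. Itgax, Itgam and Csf1r had fewer than 10 counts in every library labelled EtOH, so their calls follow partly from the filter. The part of these markers in the cluster values was not tested.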

How the data were processed

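The authors deposited, per transcript, estimated counts and TPM from kallisto 0.43.0 with GRCm38, per the submitters' processing notes; libraries were stranded total RNA after rRNA depletion, per the labels' protocols. The deposited length columns give each target's bases. Targets were joined to GENCODE M21: 75049 of 76055 matched, and 94.1% of protein-coding targets had the annotated coding length, so their untranslated regions were not counted. Estimated counts were summed per gene and rounded. Totals were 26243064 to 37517726 per library. Intervals (95% Clopper-Pearson) and floors (3 counts) cover counting error only, as PCR copies were not told apart.

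The shared effect was tested with edgeR 4.0.16 (quasi-likelihood, two-sided, TMM, filterByExpr by arm, cell type label as block, Benjamini-Hochberg over all genes, threshold 0.05), with R 4.3.3, Python 3.11.15 and scipy 1.17.1. SE is the absolute log2 fold change divided by the square root of F. Labels give the pairs, and residuals about the arm means gave pair correlations of 0.0957, 0.265 and 0.267. Alternatives used DESeq2 1.42.0 and limma 3.58.1. The procedure was tested on simulated data. All cluster genes were named; of each pathway list the 3 tested genes with the largest absolute change, with Pycard and Casp1; of neighbours the 4 highest in mean CPM; and the 5 genes most like the sum. Some genes these rules name are not reported here. Members and lists were chosen with earlier results of these data known.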

Additional observations from a re-analysis of the deposited data

Results flagged for a closer look

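Tagln2, a neighbouring gene that did not pass the shared test, moved in opposite directions in the labelled pairs beyond counting error. Its CPM ratio was 0.880 (95% counting interval 0.837 to 0.926) in the pair labelled fibroblast, against 1.21 (1.15 to 1.28) in the pair labelled lymphoma and 1.17 (1.11 to 1.23) in the pair labelled sarcoma. The library labelled fibroblast EtOH was the high one, at 113 CPM against 79.3 and 80.6 CPM in the others labelled EtOH. The difference was not tested, since each group holds 1 library. All cluster genes moved the same way in the 3 pairs.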

How the results depend on the processing

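Of 135 values of the 9 tested cluster genes under 15 alternatives of the shared test, 134 kept their direction and their call. The exception was Aim2 with DESeq2 (log2 fold change 1.66, adjusted p = 0.0806). The count of cluster genes called higher was 9 under the other alternatives except DESeq2, with 8, and no filter on low counts, with 10, where Ifi202b was also called; none was called lower in any. Leaving out a labelled pair or a library left 9 to 9 called higher. The fit with no replicate block also called 9. Over all genes tested, DESeq2 called 2541 higher and 2488 lower, and limma on log2(TPM + 1) called 2352 and 1552, against 3981 and 3920. The mean log2 ratio of the cluster sum was 1.61 ± 0.03 (SD over 3 pairs) and 1.65 with all 13 PYHIN genes of the locus. On CPM in place of TPM, Ifi211 gave 26.4% of the sum in the libraries labelled 4OHT and 37.4% in those labelled EtOH. With deposited TPM, 5 of 27 pair ratios moved beyond their counting interval, with DESeq2 size factors 0 of 27, and none reversed; Ifi211 in the pair labelled lymphoma went to 2.41. Depth limits Aim2, Ifi202b and Ifi213.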
